A study of Rattus norvegicus with 12 samples.

Results

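Heme synthesis and iron handling were followed through 9 genes, out of 14217 genes that the array annotation names singly. The 9 genes were Alas1, Alas2, Urod, Cpox and Fech of heme synthesis, and Hamp, Tfr2, Tfrc and Slc40a1 of iron handling. The genes were listed by name, and every probe set (a group of short oligonucleotides read as 1 transcript) that carries exactly that 1 symbol was taken. This gave 12 probe sets: 1 for each of 7 genes, 2 for Tfrc and 3 for Slc40a1.

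Heme is iron protoporphyrin, the oxygen- and electron-carrying group of haemoglobin, cytochromes and cytochrome P450 enzymes. Its synthesis starts in the mitochondrion with 5-aminolevulinate synthase, made from Alas1 in most tissues and from Alas2 in erythroid cells, and ends there when Fech puts iron into protoporphyrin. Liver makes much heme for its P450 enzymes, and hepatic Alas1 is the step that free heme represses. Iron leaves cells through ferroportin (Slc40a1), and the liver hormone hepcidin (Hamp) binds ferroportin and causes its breakdown. Iron bound to transferrin enters cells through transferrin receptor 1 (Tfrc), while transferrin receptor 2 (Tfr2) takes part in iron sensing by hepatocytes.

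Gene expression was measured on GeneChip rat genome arrays in 6 male rats, in both liver and renal cortex, giving 3 arrays in each of 4 groups. The groups were TCE liver, control liver, TCE kidney and control kidney. Treated rats received trichloroethylene (TCE), a chlorinated solvent, by mouth in corn oil (5 ml/kg) at 16 mg/kg per day for 3 days, and control rats received the corn oil alone. All rats were 7 to 9 weeks old, weighed 190 to 240 g and were killed 24 h after the last dose; the labels call them Wistar-derived and also give the strain F-344. Which liver and which kidney came from 1 rat is not stated. Values are log2 expression units as deposited, and a difference of 1 unit is a doubling.

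The tissues matched their labels. Alb, the hepatocyte product albumin, lay between 16.29 and 16.38 in the 6 livers, and Slc34a1, the phosphate transporter of the proximal tubule, lay between 15.15 and 15.39 in the 6 kidneys and between 2.63 and 3.57 in the livers. Alb reached from 4.36 to 12.80 in the kidney arrays, with its highest value in control kidney replicate 2. A sign of RNA quality, the gap between the 3' and 5' control probe sets of Gapdh, was 1.70, 1.56 and 1.21 log2 units in TCE livers, against 0.78, 0.80 and 0.86 in control livers (p = 0.1 in a two-sided exact permutation test, which cannot go lower with 3 arrays on each side). In TCE kidneys it was 0.59, 0.87 and 0.51, against 1.02, 0.85 and 1.05 in control kidneys (exact permutation p = 0.2). The same gap of Actb overlapped in liver, at 5.67, 5.09 and 5.22 in TCE livers, against 5.24, 4.31 and 4.36 in control livers (exact permutation p = 0.3). With 3 arrays in a group, precision is limited throughout.

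The sequences upstream of Hamp and Tfr2 are shown because these 2 genes separate the tissues most widely below. Each is the 250 bases before the annotated start, 5′ to 3′ on the gene's minus strand, from RefSeq for rat assembly GRCr8, at chr1:95300272-95300521 for Hamp and chr12:24761369-24761618 for Tfr2. Capitals in Hamp mark matches to GGCGCC, the core of a bone morphogenetic protein response element known from human and mouse hepcidin, and to TTCNNNGAA, the site form that STAT factors bind.
Hamp: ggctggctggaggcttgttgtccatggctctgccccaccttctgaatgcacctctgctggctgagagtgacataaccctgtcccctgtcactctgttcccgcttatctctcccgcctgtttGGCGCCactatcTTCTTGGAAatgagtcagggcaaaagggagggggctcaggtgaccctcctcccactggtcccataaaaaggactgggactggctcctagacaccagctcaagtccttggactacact
Tfr2: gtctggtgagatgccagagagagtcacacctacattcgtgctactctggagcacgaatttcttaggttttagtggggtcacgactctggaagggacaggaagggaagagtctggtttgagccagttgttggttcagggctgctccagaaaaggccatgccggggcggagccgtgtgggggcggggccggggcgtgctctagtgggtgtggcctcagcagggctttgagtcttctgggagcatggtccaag
Both motifs were searched on both strands. In Hamp GGCGCC lay 129 to 124 bases and TTCTTGGAA 117 to 109 bases before the start, without overlap, and the Tfr2 stretch holds neither. Of 33469 such stretches of all genes, 8.69% hold GGCGCC and 7.67% hold TTCNNNGAA. Of the 9 genes 8 matched the sequence table, all but Cpox. GGCGCC was also found before Urod, Fech and Tfrc, and TTCNNNGAA before Alas1. The upstream stretches were 41.6% G and C for Alas2, 54.4% for Urod and 56.8% to 74% for the other 6, against a median of 51.2% over all stretches.

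After TCE, none of the 9 genes passed the test in either tissue. The lowest unadjusted p was that of Alas1, which read higher in TCE than in control kidneys, and the largest liver difference was that of Alas2, which read lower in TCE livers. In liver, 0 of 12 probe sets passed an adjusted p of 0.05 in limma, where 0% of all 18625 tested did. At an unadjusted p under 0.05 there were 3 of 12 (25%), against 13.8% of all. In kidney, 0 of 11 passed, against 0% of all, and at an unadjusted p under 0.05 it was 1 of 11 (9.09%), against 14.5% of all. Hamp was not tested in kidney, where its mean lay under the filter on dim probe sets. The 3 treated and 3 control values lay apart for 2 of 12 probe sets in liver (16.7%), against 19.2% of all, and for 2 of 11 in kidney (18.2%), against 19.5% of all. The shares that lay apart are near the background. The median difference over the tested probe sets of the 9 genes was -0.013 in liver and -0.053 in kidney, beside 0.020 and 0.0023 over all probe sets tested.

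**Figure D1:**
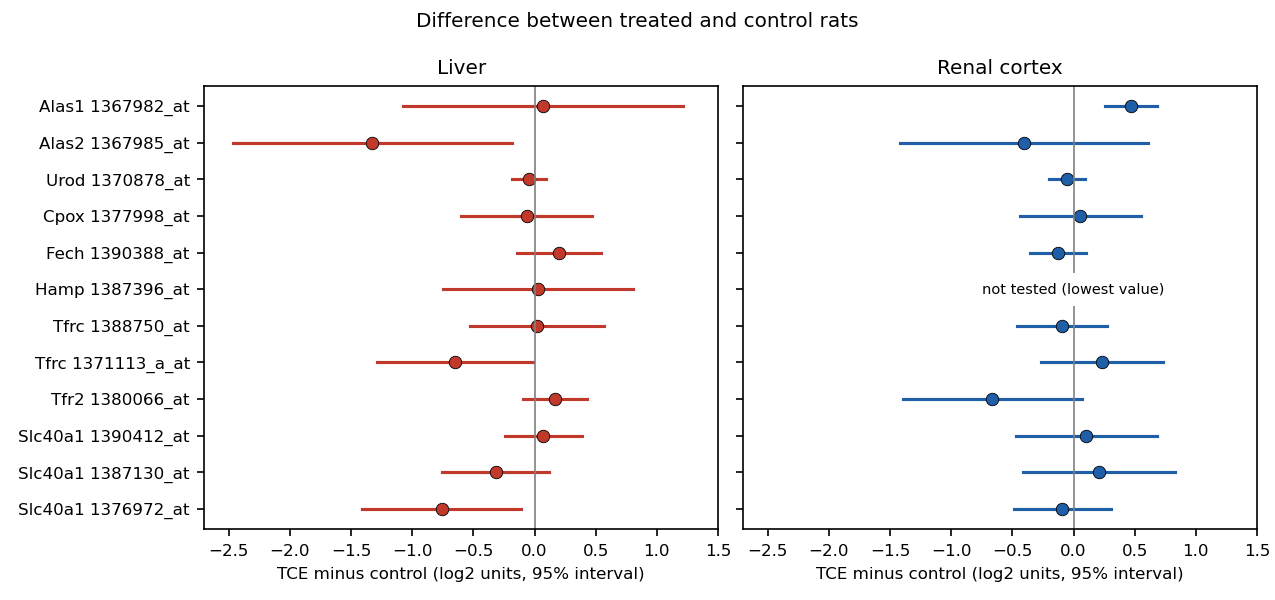
Difference between TCE and control rats in log2 units (horizontal axis) for the 12 probe sets, in liver (left) and renal cortex (right); points are limma estimates and lines 95% intervals, n = 3 against 3 arrays. Intervals lie off 0 for Alas2, the dimmer Tfrc probe set and the dimmest Slc40a1 probe set in liver and for Alas1 in kidney, and 0 probe sets passed the adjusted test.

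Alas1, the housekeeping 5-aminolevulinate synthase that sets the rate of hepatic heme synthesis, was higher in every TCE kidney than in any control kidney. It read 9.89, 10.06 and 9.83 in TCE kidneys, against 9.53, 9.47 and 9.37 in control kidneys. The log2 difference was 0.47 ± 0.08 (SE), or 1.38-fold, with a 95% interval of 0.26 to 0.68. It did not pass over all probe sets (limma adjusted p = 0.184, unadjusted p = 0.00207). Leaving out 1 kidney array at a time gave 0.40 to 0.52. The 3' to 5' gap of Actb, another sign of RNA quality, also lay apart, at 4.20 to 4.36 in TCE kidneys and 4.40 to 4.56 in control kidneys (exact permutation p = 0.1), and its part in the Alas1 difference was not tested.

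In liver Alas1 spread over 1.46 log2 units. The values were 10.81, 11.65 and 11.75 in TCE livers, against 12.02, 11.40 and 10.57 in control livers, so that the control values enclosed the treated ones. The difference was 0.07 ± 0.45 (SE; limma adjusted p = 0.968), and its 95% interval of -1.07 to 1.22 holds changes of more than a doubling either way. The sign turned without TCE liver replicate 2 (-0.051) or 3 (-0.10) or control liver replicate 3 (-0.31). The liver effect minus the kidney effect was -0.40 ± 0.47 (SE; limma adjusted p = 0.71), so a difference between the tissues in the effect on Alas1 was not shown. Without 1 array it ran from -0.78, without control liver replicate 3, to -0.051, without control liver replicate 1. The spread between arrays of a group, pooled over both groups of a tissue, was 0.63 log2 units in liver and 0.10 in kidney.

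**Figure D2:**
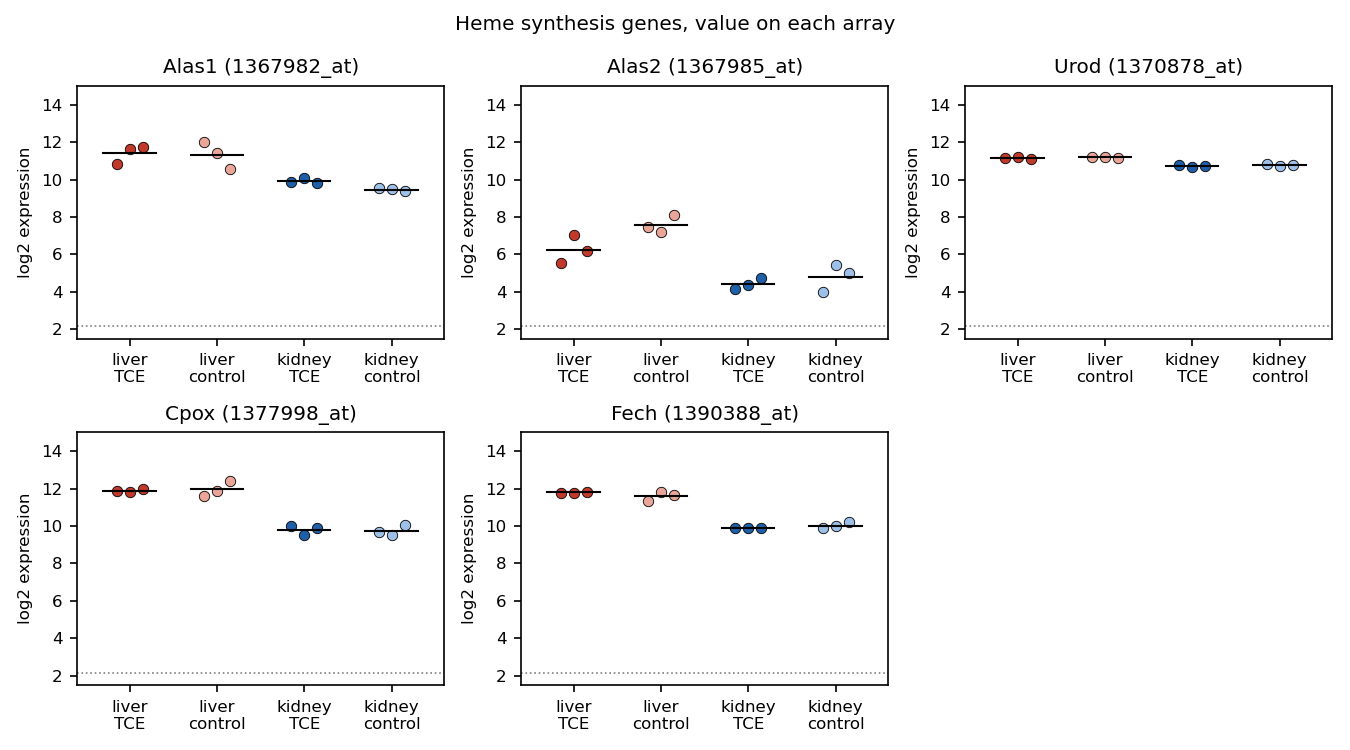
Log2 expression (vertical axis) of the 5 heme synthesis genes on each array, in TCE liver, control liver, TCE kidney and control kidney; points are arrays, black lines are means of 3, and the dotted line is the lowest value of the table. All 6 livers lie above all 6 kidneys for each gene, and Alas1 of TCE kidneys lies above that of control kidneys.

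Alas2, the erythroid 5-aminolevulinate synthase, was lower in every TCE liver than in any control liver. It read 5.54, 7.03 and 6.18 in TCE livers, against 7.44, 7.18 and 8.12 in control livers. The log2 difference was -1.33 ± 0.45 (SE), with a 95% interval of -2.47 to -0.18, and it missed the threshold (limma adjusted p = 0.309, unadjusted p = 0.0302). Without 1 array at a time it ranged from -1.72 to -0.97. In bulk tissue, fewer cells of a type and less RNA per cell cannot be told apart.

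The red cell genes Hbb and Slc4a1 were, like Alas2, lower in every TCE liver than in any control liver. Hbb, a beta chain of haemoglobin, read 13.41, 13.99 and 13.58 in TCE livers, against 14.29, 14.27 and 14.63 in control livers (log2 difference -0.74 ± 0.19 SE, limma adjusted p = 0.239). Slc4a1, the anion exchanger of the red cell membrane that the kidney also makes in acid-secreting cells, read 4.80, 4.78 and 4.59 in TCE livers, against 5.97, 5.48 and 5.92 in control livers (-1.06 ± 0.16 SE, adjusted p = 0.117). Within 3 of the 4 groups the 3 arrays had the same order in Alas2 and in Hbb, an agreement looked for after the values were seen. Slc4a1 did not have the order of Alas2 in either liver group. Alas2 was highest in TCE liver replicate 2 and control liver replicate 3, and Slc4a1 in replicate 1 of both groups. Of the 18 erythroid markers listed, 9 had a probe set of their own. The other 7 of these, Gata1 and Klf1, transcription factors of erythroid precursors, with Ahsp, Epb42, Rhag, Kel and Hemgn, stood between 2.17 and 2.42 on all arrays, where 2.17 is the lowest value of the table. The mean of the 9 was 3.71 to 3.77 log2 units in TCE livers and 3.90 to 4.00 in control livers, and its difference rests almost wholly on Hbb and Slc4a1. The part of red cell RNA and of the larger Gapdh gap of TCE livers in the Alas2 difference was not tested.

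In kidney Alas2 was dimmer and its groups overlapped. It read 4.14, 4.36 and 4.71 in TCE kidneys, against 3.99, 5.44 and 4.99 in control kidneys (log2 difference -0.40 ± 0.40 SE, limma adjusted p = 0.664). The difference was -0.088 without control kidney replicate 2 and -0.81 without control kidney replicate 1. Control kidney replicate 2 was also the kidney with the highest Hbb, 13.60, beside 12.05 and 13.01 in the other control kidneys. The liver effect minus the kidney effect on Alas2 was -0.92 ± 0.62 (SE; limma adjusted p = 0.473), and -0.51 without control kidney replicate 1.

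**Figure D3:**
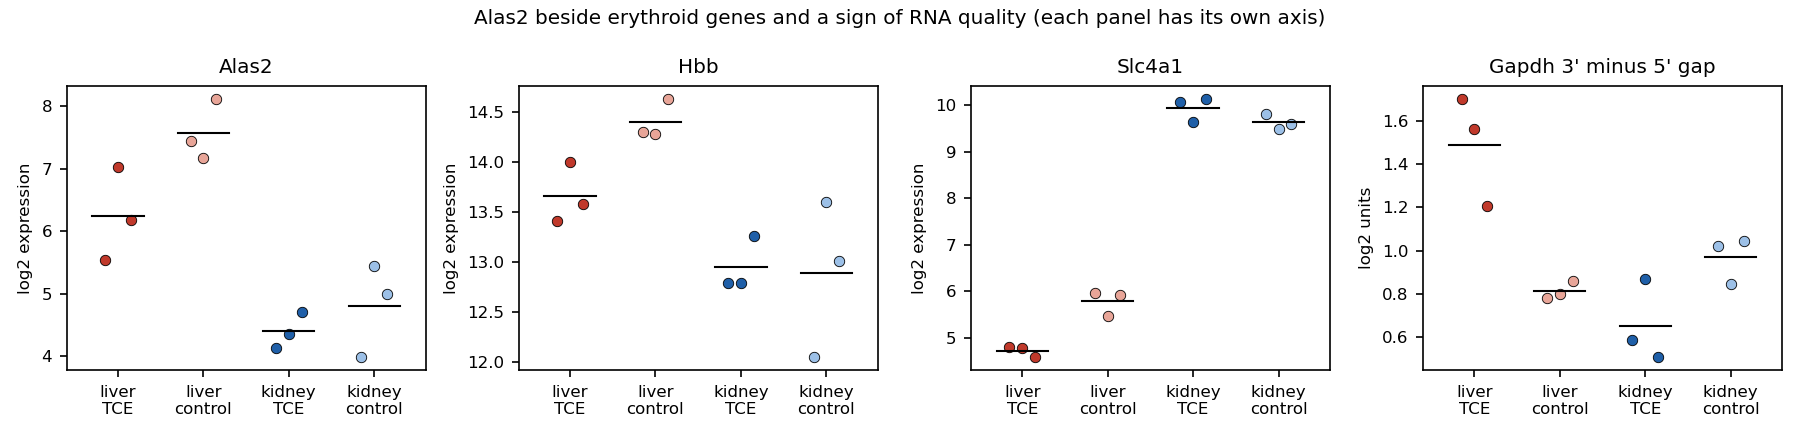
Log2 expression (vertical axes, each with its own range) of Alas2, Hbb and Slc4a1, and the Gapdh 3' minus 5' gap in log2 units, on each array of the 4 groups; points are arrays and black lines means of 3. In liver Alas2, Hbb and Slc4a1 lie lower and the gap higher in the 3 TCE rats than in the 3 control rats.

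Of the later enzymes, Urod, the cytosolic uroporphyrinogen decarboxylase, had the smallest spread of the 12 probe sets among livers. It read 11.14, 11.20 and 11.11 in TCE livers, against 11.20, 11.22 and 11.17 in control livers, and 10.79, 10.69 and 10.71 in TCE kidneys, against 10.83, 10.72 and 10.79 in control kidneys. The log2 difference was -0.045 ± 0.057 (SE) in liver and -0.053 ± 0.057 in kidney, and the 95% intervals exclude changes beyond -0.19 and 0.098 in liver and beyond -0.20 and 0.091 in kidney.

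Cpox, the coproporphyrinogen oxidase between the mitochondrial membranes, read 11.89, 11.81 and 11.99 in TCE livers, inside the control livers at 11.61, 11.87 and 12.40 (log2 difference -0.065 ± 0.21 SE). In kidney it read 10.00, 9.52 and 9.91 after TCE, against 9.67, 9.52 and 10.08 in control rats (0.056 ± 0.20 SE). The sign turned in liver without control liver replicate 3 (0.15) and in kidney without TCE kidney replicate 1 (-0.037) or control kidney replicate 2 (-0.061). Fech, the ferrochelatase, read 11.77, 11.78 and 11.84 in TCE livers, against 11.32, 11.80 and 11.66 in control livers (0.20 ± 0.14 SE, limma adjusted p = 0.55). Its kidney values were 9.88, 9.89 and 9.92 after TCE, against 9.88, 10.00 and 10.19 in control rats (-0.13 ± 0.09 SE, adjusted p = 0.547). The Fech difference was 0.066 in liver without control liver replicate 1 and -0.045 in kidney without control kidney replicate 3. Treated Fech values were close together in both tissues, with an SD of 0.040 in TCE livers and 0.25 in control livers, and of 0.021 in TCE kidneys and 0.16 in control kidneys (n = 3 each), a difference in spread that was not tested.

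Hamp, the hepcidin gene, was among the bright genes of every liver and at the bottom of the scale in every kidney. It read 14.03, 13.44 and 13.30 in TCE livers, against 13.09, 13.56 and 14.02 in control livers. The groups covered nearly the same range, and the log2 difference was 0.03 ± 0.31 (SE), with a 95% interval of -0.75 to 0.81 (limma adjusted p = 0.986). The sign turned without TCE liver replicate 1 (-0.19) or control liver replicate 1 (-0.20). All 6 kidneys stood at 2.17, including control kidney replicate 2 with its Alb of 12.80.

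Among the regulators of hepcidin, Hfe had the widest liver difference of those whose groups lay apart. Hfe, which joins Tfr2 in iron sensing and whose loss in humans causes iron overload, read 7.45, 7.42 and 8.38 in TCE livers, against 8.64, 8.62 and 8.76 in control livers (log2 difference -0.93 ± 0.28 SE, limma adjusted p = 0.28). Its 6 kidney values were 1 repeated low value, 2.79. Hjv, the hemojuvelin co-receptor, lay between 11.64 and 12.48 in the 6 livers, and its groups overlapped.

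Tfr2, the iron-sensing receptor, was steady in liver. It read 12.12, 11.92 and 11.96 in TCE livers, against 11.77, 11.73 and 11.99 in control livers (log2 difference 0.17 ± 0.10 SE, limma adjusted p = 0.512). In kidney the 3 TCE arrays all stood at 2.88, a repeated lowest value of this probe set, against 3.21, 3.20 and 4.20 in control kidneys. These values are dim, 5 of the 6 lying below the array medians of the kidneys (3.88 to 3.96), so the kidney difference of -0.66 ± 0.29 (SE; limma adjusted p = 0.38) has no fold; it was -0.33 without control kidney replicate 3. The liver effect minus the kidney effect, 0.83 ± 0.32 (SE; adjusted p = 0.224), rests on the same dim values and was 0.50 without control kidney replicate 3.

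Tfrc, transferrin receptor 1, has a bright and a dim probe set, and they did not give the same picture in liver. The bright one (1388750_at) read 10.67, 11.03 and 11.09 in TCE livers, against 11.04, 10.51 and 11.18 in control livers (log2 difference 0.02 ± 0.22 SE, limma adjusted p = 0.987). Its sign turned without TCE liver replicate 2 (-0.033) or 3 (-0.059) or control liver replicate 2 (-0.18). The dim one (1371113_a_at) read 6.50, 6.99 and 7.23 in TCE livers, against 7.58, 7.22 and 7.86 in control livers (-0.65 ± 0.25 SE, adjusted p = 0.357, unadjusted p = 0.047). Its groups overlapped narrowly, at 7.23 in the highest TCE liver and 7.22 in the lowest control liver.

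In kidney the bright Tfrc probe set read 11.07, 11.56 and 11.16 after TCE, against 11.34, 11.28 and 11.45 in control rats (log2 difference -0.093 ± 0.14 SE). The dim one read 7.23, 7.83 and 7.80, against 7.42, 7.19 and 7.55 (0.23 ± 0.20 SE). Groups overlapped for both. Without TCE kidney replicate 1 the bright probe set gave 0.0045. For the dim probe set the liver effect minus the kidney effect was -0.88 ± 0.33 (SE; limma adjusted p = 0.213, unadjusted p = 0.0235), the smallest adjusted p of the 12 probe sets in that comparison.

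**Figure D4:**
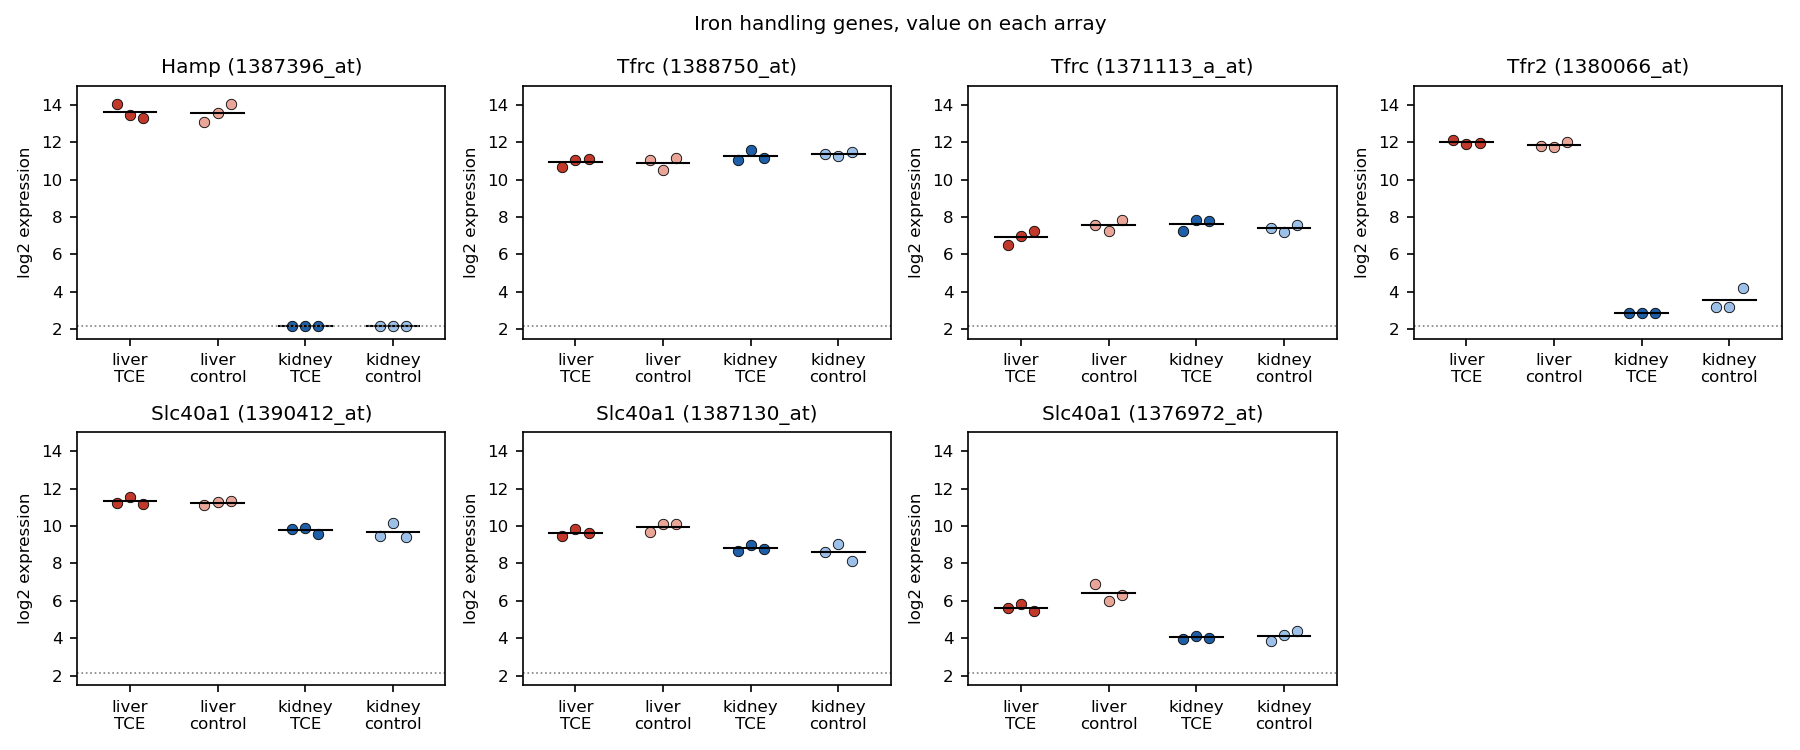
Log2 expression (vertical axis) of the 7 probe sets of the iron handling genes on each array, in TCE liver, control liver, TCE kidney and control kidney; points are arrays, black lines are means of 3, and the dotted line is the lowest value of the table. Hamp and Tfr2 are bright in livers and at or near the bottom in kidneys, while Tfrc overlaps between the tissues.

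Slc40a1, ferroportin, has 3 probe sets, whose liver differences ran from 0.07 to -0.76, none past the adjusted threshold. The brightest (1390412_at) read 11.25, 11.55 and 11.19 in TCE livers, against 11.12, 11.29 and 11.36 in control livers (log2 difference 0.07 ± 0.12 SE, limma adjusted p = 0.824). The middle one (1387130_at) read 9.46, 9.87 and 9.60, against 9.67, 10.10 and 10.12 (-0.32 ± 0.17 SE, adjusted p = 0.464). The dimmest (1376972_at) read 5.59, 5.86 and 5.45, against 6.89, 5.97 and 6.33, with no overlap (-0.76 ± 0.26 SE, adjusted p = 0.307, unadjusted p = 0.0298, and -0.97 to -0.52 without 1 array).

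In both Slc40a1 and Tfrc the brightest probe set moved least and the dimmest was lowest in TCE livers. The TCE livers also had the larger Gapdh 3' to 5' gap (1.21 to 1.70, against 0.78 to 0.86 in control livers). Their Actb gap overlapped that of control livers (5.09 to 5.67, against 4.31 to 5.24). The part of RNA quality in these differences was not tested. Without TCE liver replicate 2 the brightest Slc40a1 probe set gave -0.038.

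In kidney the 3 Slc40a1 probe sets differed by 0.11 ± 0.23, 0.21 ± 0.25 and -0.091 ± 0.16 log2 units (SE), with overlapping groups. The brightest read 9.85, 9.91 and 9.57 in TCE kidneys, against 9.46, 10.14 and 9.42 in control kidneys. The middle one read 8.66, 9.00 and 8.78 after TCE, against 8.62, 9.05 and 8.15, and the dimmest 3.98, 4.14 and 4.03, against 3.83, 4.19 and 4.41. Each sign turned without control kidney replicate 3, to -0.022, -0.021 and 0.041, and that of the brightest also without control kidney replicate 1 (-0.0030). Clec4f and Cd5l, markers of Kupffer cells, which export iron from old red cells, are in the macrophage list. The mean of its 9 measured markers was 8.95, 10.04 and 9.07 in TCE livers and 9.34 to 9.67 in control livers, and 4.57 to 4.78 in TCE kidneys and 4.34 to 4.61 in control kidneys. TCE liver replicate 2, the highest in these markers, was also the highest TCE liver for all 3 Slc40a1 probe sets. TCE kidney replicate 2 was the highest TCE kidney for all 3 but the lowest in these markers (4.57). Control liver replicate 3 and control kidney replicate 2, highest of their groups in these markers, were highest for the brightest and middle probe sets but not the dimmest. The part of these cells in the differences was not tested.

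The effect of TCE was set against itself between the tissues for all 12 probe sets. In limma 0 of 12 passed an adjusted p of 0.05, against 1.06% of all probe sets, and 2 of 12 (16.7%) had an unadjusted p under 0.05, against 17.7% of all. The 2 were the dim Tfrc probe set and Tfr2, which were described above. Hamp passed the filter here only through its livers. With all kidneys at 2.17, its difference of effects, 0.03, repeated its liver difference.

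Other genes of the same pathways did not pass either. Each was read by its brightest probe set, while the shares of all count every probe set tested. Of 81 further genes in 6 lists, 71 had a probe set of their own and 67 were tested in liver, with 40 higher and 27 lower after TCE, where 53.7% of all probe sets were higher. Of these 0 passed an adjusted p of 0.05 in limma and 8 had an unadjusted p under 0.05 (11.9%, against 13.8% of all probe sets), and the groups lay apart for 15 (22.4%, against 19.2% of all). In kidney 67 were tested, with 34 higher, 32 lower and Hfe at 1 repeated value, 0 passed, 12 had an unadjusted p under 0.05 (17.9%, against 14.5% of all), and the groups lay apart for 12 (17.9%, against 19.5% of all). The genes named next are those with the largest difference in each list among genes whose groups lay apart, and all missed the adjusted threshold (limma adjusted p from 0.174 to 0.522).

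Among 8 further heme synthesis genes tested, the widest liver difference was that of Clpx, a mitochondrial chaperone that acts on 5-aminolevulinate synthase. It read 12.16, 11.78 and 11.81 in TCE livers, against 12.35, 12.39 and 12.42 in control livers (log2 difference -0.47 ± 0.12 SE, limma adjusted p = 0.236). Abcb6, a porphyrin transporter, had 0.13 in liver and -0.30 in kidney, and Uros, the uroporphyrinogen synthase, 0.30 in kidney.

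Of 9 genes with regulators of Alas1 and P450 enzymes of the same nuclear receptors, 5 were higher and 4 lower in liver. Nr1d1, the clock repressor REV-ERB alpha that acts on Alas1 in mouse liver, read 7.24, 6.91 and 6.98 in TCE livers, against 6.59, 3.63 and 5.22 in control livers (log2 difference 1.90 ± 0.75 SE, limma adjusted p = 0.363). It was 1.14 without control liver replicate 2. Cyp3a2, a P450 enzyme, had 0.39 in liver, or 0.20 without control liver replicate 1. Foxo1, a transcription factor of the fasting response, had -0.35 in kidney.

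In heme breakdown and heme transport 5 of 10 genes were higher and 5 lower in liver, and 2 higher and 8 lower in kidney, where 50.6% of all probe sets were higher and 48.5% lower. Those lower in kidney were Hmox1, Hmox2, Blvra, Blvrb, Slc48a1 and Slc46a1, with Hp and Hpx, haptoglobin and hemopexin, which are liver products. Hp read 5.03, 2.39 and 2.54 in TCE kidneys, against 3.42, 7.51 and 2.64 in control kidneys, and Hpx 3.00, 2.71 and 2.71, against 3.40, 5.40 and 2.65. The hepatocyte markers were likewise lower in 6 of 6 tested in TCE kidneys (median difference -1.53) and highest in control kidney replicate 2, and their part in the count was not tested. Flvcr2 had 0.50 in liver, at a dim level of 3.27 log2 units in TCE and 2.77 in control livers (0.30 without control liver replicate 3), and Flvcr1, described as a heme exporter, had 0.42 in kidney. Of 17 regulators of hepcidin tested, 11 were higher and 6 lower in liver, and 8 higher and 8 lower in kidney beside the unvarying Hfe. Neo1, the neogenin receptor of hemojuvelin, had 0.12 in liver beside Hfe, or 0.064 without control liver replicate 1. In kidney Id1, a target of bone morphogenetic protein signalling, had 0.57 ± 0.06 (SE, limma adjusted p = 0.174), and Stat3 had -0.29, or -0.18 without TCE kidney replicate 2.

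For uptake, storage and export of iron, 9 of 13 genes were higher in liver and 11 of 14 in kidney, beside 53.7% and 50.6% of all probe sets, and 0 passed in either tissue. Slc25a28, mitoferrin 2, which carries iron into mitochondria, had 0.47 ± 0.10 in liver (SE, limma adjusted p = 0.2), and Pcbp2, an iron chaperone, 0.20. Pcbp1 had 0.17 (0.12 without control kidney replicate 3) and Fbxl5, the iron-sensing ligase subunit that degrades iron regulatory protein, 0.14 in kidney. Of 10 iron-sulfur cluster genes, 6 were higher and 4 lower in each tissue. Nfs1, the cysteine desulfurase that supplies sulfur, had -0.33 in liver and 0.15 in kidney, Nubp1 had 0.29 in liver and Lyrm4, the partner of Nfs1, 0.33 in kidney. The kidney values were 0.090 for Nfs1 without TCE kidney replicate 2 and 0.22 for Lyrm4 without control kidney replicate 3.

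Between the tissues of control rats the genes of heme synthesis were all higher in liver, and iron handling was split. In limma 10 of 12 probe sets (83.3%) passed an adjusted p of 0.05, all of them higher in liver, against 26.8% of all probe sets that passed as higher and 61.8% that passed in either direction. These 10 belong to 8 genes, and for each of them every liver array, treated or control, lay above every kidney array, which held for 24.2% of all probe sets. The comparison shares its control arrays with both TCE comparisons.

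**Figure D5:**
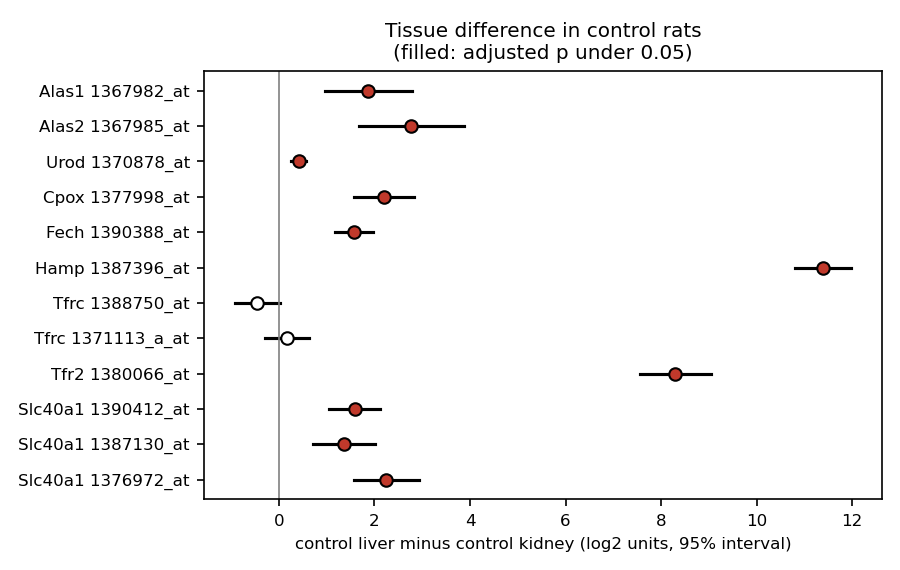
Control liver minus control kidney in log2 units (horizontal axis) for the 12 probe sets; points are limma estimates, lines are 95% intervals, and filled points passed an adjusted p of 0.05 (n = 3 against 3 arrays). Hamp and Tfr2 lie far to the right, the heme synthesis genes between 0.41 and 2.77, and the 2 Tfrc probe sets are not filled.

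Of the heme synthesis genes, the log2 difference between control liver and control kidney was 2.77 ± 0.44 (SE) for Alas2, 2.21 ± 0.25 for Cpox, 1.87 ± 0.37 for Alas1, 1.57 ± 0.15 for Fech and 0.41 ± 0.06 for Urod (limma adjusted p from 0.000375 to 0.00632). Alas1 and Fech were thus 3.66-fold and 2.97-fold higher in liver, and Urod 1.33-fold. These sizes depend on the scaling: with each array centred on its median the log2 difference of Urod was 0.82, and after a further quantile normalization 0.31, both past the threshold. Hbb was likewise higher in liver, at 14.40 ± 0.20 in control livers and 12.89 ± 0.78 in control kidneys (SD, n = 3 each). Slc4a1, which the kidney also makes in acid-secreting cells, went the other way, at 5.79 ± 0.27 in control livers and 9.63 ± 0.17 in control kidneys. The part of red cell RNA in the tissue difference of Alas2 was not tested. Arrays of Urod differed so little within a tissue (pooled SD of 0.035 in livers and 0.052 in kidneys) that this small difference passed.

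Hamp averaged 13.56 in control livers and 2.17 in control kidneys, a log2 difference of 11.39 ± 0.24 (SE, limma adjusted p = 8.84e-07). With the kidneys at the lowest value of the table, this is at least 2686-fold, and the files give no detection calls that would set the floor otherwise. Tfr2 averaged 11.83 in control livers and 3.54 in control kidneys, a difference of 8.29 ± 0.30 (SE, adjusted p = 6.64e-06), or at least 314-fold. The 3 Slc40a1 probe sets gave 1.58 ± 0.22, 1.36 ± 0.26 and 2.25 ± 0.27 (SE), all higher in liver, and here they pointed the same way.

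Tfrc did not follow. Its bright probe set was lower in every control liver than in any control kidney (log2 difference -0.45 ± 0.19 SE, limma adjusted p = 0.0843), and the dim one overlapped (0.17 ± 0.19 SE, adjusted p = 0.46). The scaling of the arrays decides here. The medians of the arrays differ between the tissues, and centring each array on its median moves the median difference of all probe sets by 0.41, after which the bright Tfrc probe set had -0.039 (adjusted p = 0.857) and the dim one 0.58 (adjusted p = 0.0287). After a further quantile normalization, which moves that median by 0.17, they had -0.58 (adjusted p = 0.0311) and 0.36 (adjusted p = 0.13). The 10 probe sets above passed as higher in liver under both.

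Of the 68 further genes of the 6 lists tested between the tissues, 51 passed (75%, against 61.8% of all probe sets), 29 higher and 22 lower in control liver. The listed genes were read by their brightest probe set, while 61.8% counts every probe set tested, so these shares are not strictly alike. Among the 8 further heme synthesis genes 6 were higher and 2 lower in control liver, with 5 and 2 past the threshold. Of all 11514 probe sets that passed, 43.3% were higher in liver, but 67% with each array centred and 54.2% after quantile normalization.

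Genes with the pattern most like a member were those with the smallest root mean square distance between values centred over the 12 arrays, out of 14217 genes with 1 probe set each. For Hamp these were Rdh7 (0.235 log2 units), Fabp7 (0.256) and Amy1 (0.26), all near 14 in liver and near the lowest value in kidney. For Alas1 they were Msl3l2 (0.251), Tmem39a (0.284) and Ppp1r15b (0.294). For Tfrc, taken by its bright probe set, they were Ndufs4 (0.132), Thoc6 (0.152) and Dctn5 (0.159). Arrays of a pair share tissue, treatment and scaling.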

How the data were processed

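The log2 values of 31099 probe sets on 12 arrays were analysed as the authors deposited them. Their range, 2.17 to 16.49, gave the scale. Per the submitters' processing notes affy and limma were used; the normalization is not given in the sources used here. Groups came from the sample titles.

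Names came from the platform annotation at GEO (20826 with 1 symbol, 436 with several and 9780 with none; 57 control probe sets were left out). All 12 probe sets of the 9 genes had gene IDs in RefSeq (GRCr8), which changed 0 symbols. limma 3.58.1 in R 4.3.3 (lmFit, eBayes) was fitted to probe sets whose mean exceeded the 40th percentile of the fit's arrays, 6 arrays for a comparison of 2 groups and 12 for the difference of effects, with two-sided p-values adjusted by Benjamini and Hochberg's method over the 18625 probe sets tested. SE is limma's moderated standard error. A gene outside the 9 was represented by its brightest probe set. The fits were tested on simulated data. The members and lists were chosen with earlier results of these data known. The genes named were the 9 members, any listed gene past the threshold after TCE, and up to 2 per list and tissue with the largest difference among those whose groups did not overlap; Hjv, Hbb, Slc4a1, Hp and Hpx were added as context after their values were seen. Alternatives were other filters, 1 probe set per gene, other scalings, trend and robust variances, a replicate block, all 12 arrays, and leaving out each array.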

Additional observations from a re-analysis of the deposited data

Results flagged for a closer look

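Effects that differed between the tissues, or ran in opposite directions in every array, were looked for among the 12 probe sets of the 9 genes and the listed genes beside them. None of the 12 did. Of the 68 further pathway genes tested, 0 passed in the difference of effects, and of the 2 erythroid markers tested only Slc4a1 did. Slc4a1, the anion exchanger, was 1.06 log2 units lower in TCE than in control livers and 0.32 higher in TCE than in control kidneys. The difference of these effects passed (-1.38 ± 0.24 SE, limma adjusted p = 0.0308), as it did for 1.06% of all probe sets. The call was lost in 8 of 12 fits that left out 1 array (adjusted p from 0.0585 to 0.0859, without TCE liver replicate 1 or 2, control liver replicate 3, TCE kidney replicate 1 or 3, or any control kidney), while the difference stayed between -1.53 and -1.28. Abcb6, the porphyrin transporter, was higher in every TCE liver than in any control liver and lower in every TCE kidney than in any control kidney, with a difference of effects of 0.43 ± 0.13 (SE) that did not pass (adjusted p = 0.129). Nfs1, the cysteine desulfurase, did the reverse, with -0.48 ± 0.12 (SE; adjusted p = 0.0831). Of all probe sets tested, the groups lay apart for 19.2% in liver and 19.5% in kidney. How many lay apart in opposite directions was not counted, so these cases have no background share.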

How the results depend on the processing

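The count of probe sets of the 9 genes past the threshold was 0 under every alternative run for liver, kidney and the difference of effects, including no filter, a replicate block, all 12 arrays in 1 fit and each array left out. Between control tissues it stayed at 8 to 11, among 9 to 12 tested. Whether equal replicate numbers mark a pair is unsettled, and they were not used as pairs (correlations of same-numbered deviations from -0.0763 to 0.0845; across tissues 4 of 6 TCE and 6 of 6 control arrays correlated best with their own number); with the replicate block the counts were 0, 0, 0 and 10. Over all probe sets, calls after TCE in liver were 0, but 21 with no filter, 339 with all 12 arrays and 1 without TCE liver replicate 1. In kidney they were 0, but 5 with no filter, 26 with all 12 arrays and 1 with a stricter filter. For the difference of effects they were 198, but 57 with 1 probe set per gene and from 40 without control kidney replicate 1 to 410 without TCE liver replicate 3; between control tissues they were 11514, and 7309 with 1 probe set per gene. Small differences that changed sign were, in the difference of effects, Slc40a1 (1390412_at) at 0.018 after quantile normalization and Urod at -0.019 with centred arrays. The difference of effects for Slc4a1 missed the threshold with no filter (-1.38, limma adjusted p = 0.0641) and that for Nfs1 passed with trend and robust variances (-0.48, adjusted p = 0.0424); the liver difference of Slc4a1 passed with all 12 arrays (-1.06, adjusted p = 0.0171). Over 24 TCE differences given for genes beside the 9, 0 of 333 refits changed sign.

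Leaving out 1 array turned the sign of small differences. In liver the ranges were -0.31 to 0.42 for Alas1, -0.24 to 0.15 for Cpox, -0.20 to 0.26 for Hamp, -0.18 to 0.15 for Tfrc (1388750_at) and -0.038 to 0.14 for Slc40a1 (1390412_at). In kidney they were -0.061 to 0.22 for Cpox, -0.24 to 0.0045 for Tfrc (1388750_at), and -0.022 to 0.34, -0.021 to 0.43 and -0.25 to 0.041 for Slc40a1 (1390412_at, 1387130_at and 1376972_at). In the difference of effects they were -0.016 to 0.037 for Urod, -0.30 to 0.098 for Cpox, -0.086 to 0.26 for Tfrc (1388750_at) and -0.27 to 0.094 for Slc40a1 (1390412_at). For Hamp, whose kidneys stood at the bottom of the scale, that range was the liver range again, -0.20 to 0.26. Dim probe sets (Tfr2 in kidney, Slc40a1 1376972_at) limit their own differences. The cause of these changes was not tested.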
